A study of Homo sapiens with 118 samples.

Results

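The integrated stress response and the unfolded protein response of the endoplasmic reticulum were followed through 10 of their marker genes, ATF3, ATF4, DDIT3, TRIB3, ASNS, CHAC1, HSPA5, HERPUD1, XBP1 and DNAJB9. A probe of the count table was taken as a member when its name, less the number at its end, was one of these symbols. This gave 11 of the 22068 probes used, and 10 of the 19470 gene symbols, because DDIT3 had 2 probes (DDIT3_1800 and DDIT3_16736). The libraries were made with TempO-Seq, an assay in which neighbouring detector oligonucleotides are hybridised to a transcript, ligated, amplified and counted by sequencing. The cells were differentiated HepaRG, an established line derived from a human liver tumour that contains hepatocyte-like and biliary-like cells. They received 1 of 8 histone deacetylase inhibitors at 5 concentrations, C1 (lowest) to C5 (highest), for 72 h with a fresh dose every day. Each of 40 groups held 3 libraries, 1 from each of 3 HepaRG batches, except panobinostat C3 and trichostatin A C4, which held 2 and lacked batch 3.

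From C1 to C5 the concentrations ran from 0.041722 to 0.86 µM for apicidin, from 0.177222 to 3.9 µM for mocetinostat and from 0.001468 to 0.084 µM for panobinostat. They ran from 4.94 to 94.5 µM for scriptaid, from 1.143333 to 44 µM for tacedinaline, from 0.018811 to 1.5237 µM for trichostatin A and from 0.404778 to 23.5 µM for vorinostat. For valproic acid the sample labels gave 100.478 to 3038 and the exposure protocol gave 0.100478 to 3.038 µM, so its unit was not settled. No 2 chemicals shared a concentration at C5. Apicidin, mocetinostat, panobinostat, trichostatin A and valproic acid were on plate H, and plate E held the other 3. Solvent controls were not analysed here. Each chemical was therefore compared with its own C1, at which the cells already carried the inhibitor, and a change complete at C1 could not be seen.

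As background, the integrated stress response starts when a kinase that senses stress (EIF2AK1 to EIF2AK4, named HRI, PKR, PERK and GCN2) phosphorylates the translation factor eIF2α. General translation then slows while the mRNA of the transcription factor ATF4 is translated more, so ATF4 is controlled largely at the protein level. ATF4 and its partners induce DDIT3 (CHOP), ATF3, TRIB3, ASNS and CHAC1. The unfolded protein response shares PERK with it and adds the sensors IRE1 (ERN1), which splices XBP1 mRNA, and ATF6, and their targets include HSPA5, HERPUD1 and DNAJB9. Hepatocytes secrete large amounts of protein and keep these folding genes active without added stress. The chemicals of this series inhibit histone deacetylases, enzymes that take acetyl marks off histones, and so change transcription widely.

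The start-site windows of 5 members that held a match to the motifs described below are printed here. Their probes moved in opposite directions in the results that follow. TRIB3 and DNAJB9, also called lower, held no match, and ATF3, which held a match, is not printed. HSPA5, HERPUD1 and XBP1 were lower at C5 in most chemicals, and ASNS and CHAC1 were higher in several. Each window spans 250 bases before to 50 after a RefSeq transcription start (GRCh38.p14), 5′ to 3′ along the gene. Windows were searched on both strands for 4 motifs, and matches are in capitals. They were the endoplasmic reticulum stress element (ERSE, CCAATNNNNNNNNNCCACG), the variant ERSE-II (ATTGGNCCACG), the C/EBP-ATF response element to which ATF4 binds (CARE, TGATGNAA) and the cyclic AMP response element (CRE, TGACGTCA).
HSPA5, chr9:125241294-125241593, minus strand, ERSE: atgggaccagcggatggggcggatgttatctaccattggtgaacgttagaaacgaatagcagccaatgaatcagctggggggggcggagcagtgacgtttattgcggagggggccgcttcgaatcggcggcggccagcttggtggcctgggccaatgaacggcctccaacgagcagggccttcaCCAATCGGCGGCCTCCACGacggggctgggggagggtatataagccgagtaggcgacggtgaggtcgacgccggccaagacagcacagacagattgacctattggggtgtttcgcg
XBP1, chr22:28800520-28800819, minus strand, ERSE: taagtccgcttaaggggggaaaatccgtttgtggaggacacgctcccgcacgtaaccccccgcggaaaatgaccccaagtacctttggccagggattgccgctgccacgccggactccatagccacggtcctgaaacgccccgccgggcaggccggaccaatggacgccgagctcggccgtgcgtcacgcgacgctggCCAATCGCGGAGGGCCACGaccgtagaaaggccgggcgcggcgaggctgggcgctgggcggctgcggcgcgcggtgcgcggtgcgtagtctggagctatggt
HERPUD1, chr16:56931892-56932191, plus strand, CARE (reverse complement) then ERSE-II: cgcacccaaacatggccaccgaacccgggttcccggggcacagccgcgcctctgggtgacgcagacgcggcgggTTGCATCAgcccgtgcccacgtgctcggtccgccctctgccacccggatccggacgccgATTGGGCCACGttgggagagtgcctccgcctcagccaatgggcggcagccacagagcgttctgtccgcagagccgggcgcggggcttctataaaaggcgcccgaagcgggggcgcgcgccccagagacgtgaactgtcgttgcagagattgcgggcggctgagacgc
ASNS, chr7:97872359-97872658, minus strand, CARE: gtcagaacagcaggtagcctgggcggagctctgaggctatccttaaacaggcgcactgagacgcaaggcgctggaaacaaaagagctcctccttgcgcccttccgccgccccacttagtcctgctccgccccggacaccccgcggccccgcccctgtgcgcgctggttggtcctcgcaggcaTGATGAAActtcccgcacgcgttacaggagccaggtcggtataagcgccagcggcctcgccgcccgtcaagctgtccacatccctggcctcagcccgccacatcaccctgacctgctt
CHAC1, chr15:40953221-40953520, plus strand, CARE (reverse complement): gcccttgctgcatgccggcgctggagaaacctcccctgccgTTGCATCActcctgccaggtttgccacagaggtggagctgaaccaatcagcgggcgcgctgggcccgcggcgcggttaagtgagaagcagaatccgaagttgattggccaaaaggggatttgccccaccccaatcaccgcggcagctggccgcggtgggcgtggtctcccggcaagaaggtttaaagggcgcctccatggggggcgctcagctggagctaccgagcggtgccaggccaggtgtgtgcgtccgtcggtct

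All 10 member genes had windows in the table, 17 in all. Among 35116 windows of all genes, ERSE occurred in 0.0769%, ERSE-II in 0.0541%, CARE in 3.62% and CRE in 1.85%. Among the members, the only window of HSPA5 and 1 of 2 of XBP1 held ERSE, the only window of HERPUD1 held ERSE-II and CARE, and the only window of CHAC1, 1 of 2 of ASNS and 1 of 2 of ATF3 held CARE. CRE was found in 0 of 17 member windows, and no motif of the 4 was found in the windows of ATF4, DDIT3, DNAJB9 or TRIB3. HERPUD1, which held both CARE and ERSE-II, was lower with HSPA5 and XBP1, not higher with ASNS and CHAC1. A match is a description of letters and not proof of a site, and a window without a match says only that these letters were not in it.

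Library totals lay between 1061359 and 5250260 counts (median 3702007), with the lowest in vorinostat C5 (1061359 to 1879287). Levels are given in CPM, counts brought to a common library size with TMM factors within a chemical. The probes differ in efficiency, so levels of different genes are not compared. Albumin (ALB, 25143 to 143371 counts) and transthyretin (TTR, 7191 to 35577 counts) were read in every C1 library, as markers of hepatocyte-like cells. The biliary marker KRT19 had medians of 134 and 41.5 counts by its 2 probes and KRT7 of 3 and 0, and the stromal markers COL1A1 had 21.5 and VIM 2 and 0. Since probes differ in efficiency, these counts do not give the share of each cell type. Of the 13 probes of 12 hepatocyte markers, 11 to 13 were called lower at C5 in each of 7 chemicals and 0 in trichostatin A. Their summed level per library was 44900 to 60680 CPM at tacedinaline C1 and 3405 to 4846 CPM at C5, and 43720 to 51520 CPM at panobinostat C1 and 22610 to 29480 CPM at C5, which were the largest and the smallest ratio of medians among the 7. Cell cycle markers were also called lower, 2 to 6 of 7 or 8 tested probes in these 7 chemicals, with sums of 1642 to 1931 CPM at vorinostat C1 and 123.1 to 183.9 CPM at C5. The biliary list had 11 calls higher and 5 lower over all chemicals, and the stromal list 7 higher and 24 lower. In these lysates fewer cells of a type and less RNA per cell cannot be told apart. The part of these shifts in the changes of the stress genes was not tested.

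A trichostatin A library, C1 of batch 3, stood apart from its group. Its hepatocyte marker sum was 13190 CPM against 50970 and 54960 CPM in the other C1 libraries, and it had the lowest HSPA5, DDIT3_1800, DNAJB9 and XBP1 and the highest ASNS of the 3. For TRIB3, ASNS, HSPA5, HERPUD1, XBP1 and DNAJB9 the C5 change in trichostatin A is given with and without it. Other values for trichostatin A include it unless batch 3 was left out. Without it, no member call at C5 or by trend changed.

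At C5, members were called lower more often than higher. A probe was called when its adjusted p was under 0.05 and its fold change at least 1.5 in edgeR's quasi-likelihood test, with Benjamini-Hochberg adjustment over all features tested in that chemical. Of 88 combinations of member probe and chemical, 85 could be tested, and 29 (34.1%) were called lower and 8 (9.41%) higher. Over all features and chemicals 13.4% were called lower and 11.6% higher. The untested 3 were ATF3 in tacedinaline and vorinostat and CHAC1 in vorinostat, which had too few counts. The calls lower were 7 of TRIB3, 6 each of HSPA5 and HERPUD1, 5 of XBP1, 3 of DNAJB9 and 1 each of ATF4 and DDIT3. The calls higher were 4 of ASNS, 3 of CHAC1 and 1 of ATF3. All 37 calls had the same direction in all 3 batches. The median log2 change over the tested member probes was -0.58, beside 0.02 over all features.

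Tacedinaline and mocetinostat had the most member calls. Under tacedinaline 2 of 10 tested member probes were higher and 5 lower, where 18.7% of all features were called higher and 20.1% lower. Under mocetinostat 2 of 11 were higher and 5 lower, where the shares over all features were 14.8% and 15.7%. Vorinostat changed the largest share of all features, 22.7% higher and 24.9% lower, and 1 member higher and 4 lower of 9. In all 3 the members' share lower was above that of all features. With apicidin 1 member was higher and 4 were lower of 11, beside 13.8% and 15% of all features. With scriptaid 2 were higher and 3 lower of 11, beside 12.8% and 17%. Scriptaid was the chemical with the only ATF3 call. Panobinostat and valproic acid had member calls in 1 direction. With panobinostat 0 of 11 were higher and 4 lower, where 6.77% and 9.46% of all features were called. With valproic acid 0 of 11 were higher and 4 lower, where the shares were 4.84% and 6.22%. Trichostatin A gave no member call, 0 higher and 0 lower of 11, and called 0% of all features higher and 0.0154% lower. In trichostatin A, ASNS alone passed at an unadjusted p under 0.05 (edgeR's quasi-likelihood test, adjusted p = 0.417), and DESeq2 called 0. The lower share of the members was above that of all features in 7 chemicals, but the hepatocyte markers had a higher one, up to all 13 of 13 probes.

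The number of calls changed when a batch was left out. Each C1 and C5 group then held 2 libraries, so a call could be lost through fewer libraries alone. ASNS in mocetinostat, for example, lost its call without batch 2 at a log2 change of 1.87, beside 1.74 with all batches. A lost call therefore does not show that it rested on that batch. Without batch 2 the calls higher went from 8 to 2, without batch 1 to 5 and without batch 3 to 6. The calls lower went from 29 to 21, 21 and 26 without batches 1, 2 and 3. Of the 37 calls, 16 were made whichever batch was left out, namely 5 of TRIB3, 5 of HSPA5, 2 of XBP1 and 1 each of ASNS, CHAC1, HERPUD1 and DNAJB9.

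**Figure D1:**
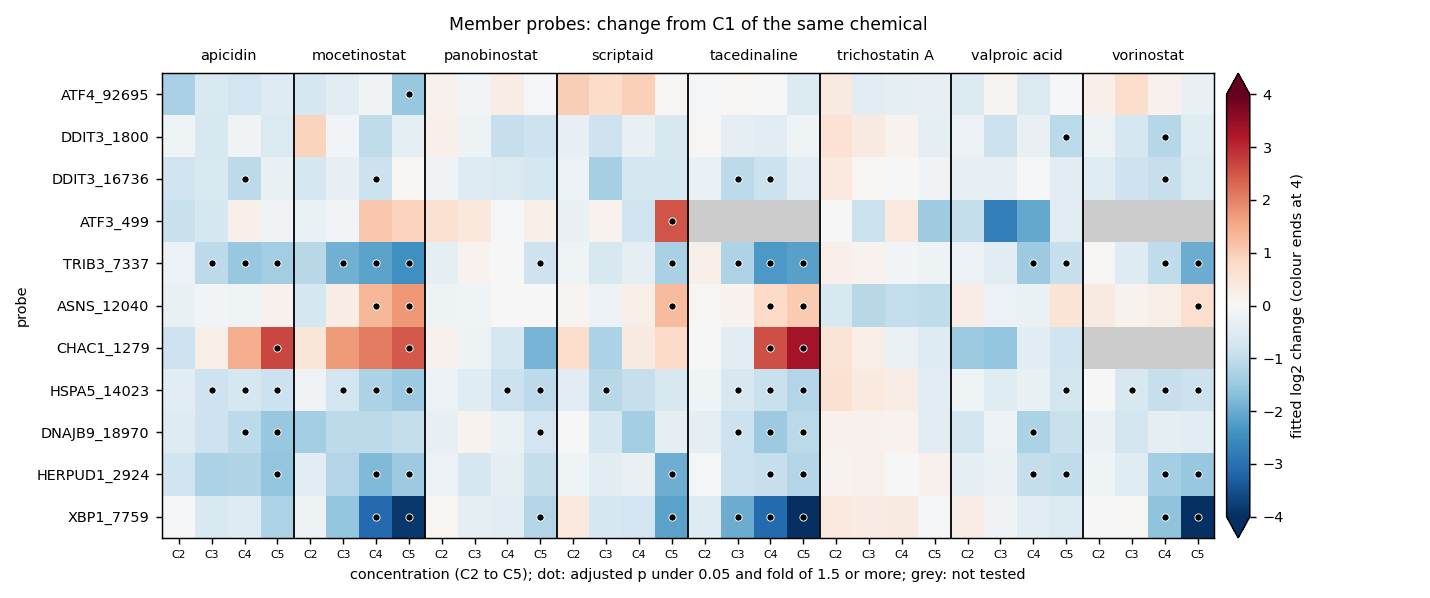
Fitted log2 change of the 11 member probes (rows) at C2 to C5 of each chemical (columns) against C1 of the same chemical, with blue for lower, red for higher and a dot where the change was called. The blue and called cells collect in TRIB3, HSPA5, HERPUD1 and XBP1 at C3 to C5. The red ones collect in ASNS and CHAC1, and trichostatin A has no dot. XBP1 at vorinostat C5 had 0 counts in all 3 libraries. Its colour shows the fitted change, which lies past the end of the scale, while the fall is known only as a bound.

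The transcription factors ATF4, DDIT3 and ATF3 gave few calls. ATF4, the central activator of the integrated stress response, was called lower in mocetinostat at C5 and in no other chemical or concentration. DDIT3, which encodes the pro-apoptotic factor CHOP, was lower in places and never called higher. ATF3, an early stress-induced repressor, was called higher at scriptaid C5 alone. ATF4 read 10.8, 14.3 and 6.98 CPM in the mocetinostat C1 libraries of batches 1, 2 and 3, and 2.29, 5.31 and 3.56 CPM at C5. All 3 C5 libraries lay below all 3 at C1, a log2 change of -1.52 ± 0.47 SE, adjusted p = 0.0225. The intermediate groups did not fall in order, with 14.2, 7.05 and 8.04 CPM at C4, the trend over 5 concentrations was not called (adjusted p = 0.242), and the C5 call was lost without any 1 batch (adjusted p = 0.133, 0.12 and 0.0681 without batches 1, 2 and 3). In the other 7 chemicals the C5 change of ATF4 mRNA lay between -0.53 and 0.06 on the log2 scale and the C1 and C5 libraries overlapped. The protein was not measured.

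DDIT3 was read by 2 probes, which share a gene and are not independent. At valproic acid C5, DDIT3_1800 read 23.1, 24.7 and 29.8 CPM against 52.1, 48.3 and 64.0 CPM at C1. The groups were apart and the call was lower, at -1.09 ± 0.25 SE, adjusted p = 0.0056, which became 0.146 without batch 1 and 0.0646 in a model of all 118 libraries. DDIT3_16736 in the same libraries read 23.1, 11.2 and 19.0 CPM against 26.6, 20.7 and 26.3 CPM, and these groups overlapped (log2 change -0.47 ± 0.28 SE, adjusted p = 0.335). At C4 DDIT3_16736 was called lower in apicidin (-1.05 ± 0.30), mocetinostat (-0.85 ± 0.29), tacedinaline (-0.86 ± 0.33) and vorinostat (-0.94 ± 0.30), and DDIT3_1800 in vorinostat (-1.13 ± 0.32). None of these 5 was called at C5. In apicidin, for example, DDIT3_16736 read 27.0, 28.2 and 20.5 CPM at C1, 14.2, 11.9 and 10.5 CPM at C4 and 19.5, 19.1 and 23.5 CPM at C5, so the lowest level was not at the highest concentration. DDIT3_1800 was highest, over all libraries, at mocetinostat C2 in batches 1 and 2. The group read 136, 111 and 35.2 CPM against 39.6, 55.4 and 57.3 CPM at C1. Batch 3 was not high, and the change was not called (0.89 ± 0.46 SE, adjusted p = 0.302). Over the 32 differences from C1, the 2 DDIT3 probes had a Pearson r of 0.55.

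ATF3 had few counts everywhere. At scriptaid C5 it read 9.05, 6.67 and 29.7 CPM (20, 22 and 57 counts) against 5.11, 1.47 and 1.19 CPM at C1 (16, 6 and 4 counts). Every C5 library was above every C1 library, with batch 3 far above the others, and the change was 2.53 ± 0.78 SE, adjusted p = 0.0201. Without batch 3 the change was 1.25 (adjusted p = 0.271), without batch 2 the adjusted p was 0.128, and without batch 1 the change was 3.68 and still called. At C4 the same chemical gave 2.76, 1.24 and 0 CPM, which overlapped C1. In the other 5 chemicals in which ATF3 was tested, its C5 change was between -1.43 and 0.92 with overlapping libraries. At valproic acid C3 it held 3, 2 and 0 counts against 18, 7 and 11 at C1, and that change was not called (-2.77 ± 1.13 SE, adjusted p = 0.388).

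TRIB3, a pseudokinase that is induced by ATF4 and DDIT3 and inhibits AKT signalling, was lower at C5 in 7 of 8 chemicals, from 1.76-fold in panobinostat to 5.53-fold in mocetinostat. It was the member called in the most chemicals. In mocetinostat it read 332, 384 and 225 CPM in the C1 libraries of batches 1, 2 and 3 and 57.1, 72.8 and 40.0 CPM at C5. In tacedinaline it read 282, 249 and 259 CPM at C1 and 74.7, 53.8 and 48.1 CPM at C5. In vorinostat it read 221, 227 and 184 CPM at C1 and 55.6, 49.7 and 53.5 CPM at C5. In these 3 chemicals the C5 libraries lay far below the lowest C1 library. The log2 changes were -2.47 ± 0.41 SE, adjusted p = 0.00028 in mocetinostat, -2.17 ± 0.17 SE, adjusted p = 5.49e-14 in tacedinaline and -1.995 ± 0.19 SE, adjusted p = 2.44e-10 in vorinostat. Apicidin gave 277, 273 and 238 CPM at C1 and 111, 94.7 and 96.9 CPM at C5 (-1.38 ± 0.24 SE, adjusted p = 0.000136). Scriptaid gave 168, 181 and 201 CPM at C1 and 68.8, 91.9 and 64.0 CPM at C5 (-1.29 ± 0.26 SE, adjusted p = 0.0012). These groups too were apart. The smallest changes with a call were in valproic acid and panobinostat. Valproic acid gave 281, 281 and 265 CPM at C1 and 155, 133 and 147 CPM at C5 (-0.93 ± 0.19 SE, adjusted p = 0.00175). Panobinostat gave 256, 227 and 204 CPM at C1 and 125, 141 and 124 CPM at C5 (-0.82 ± 0.19 SE, adjusted p = 0.00361). The C5 libraries were below the C1 libraries in both, but the calls were lost without batch 1 in valproic acid (adjusted p = 0.0918) and without batch 1 or 3 in panobinostat (adjusted p = 0.0906 and 0.0579). Trichostatin A gave 218, 286 and 245 CPM at C1 and 193, 204 and 247 CPM at C5, which overlapped (-0.22 ± 0.17 SE, adjusted p = 0.734). Without the library that stood apart this change was -0.24.

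TRIB3 was first called lower at C3 in apicidin (-1.05 ± 0.23), mocetinostat (-1.91 ± 0.41) and tacedinaline (-1.22 ± 0.16), at C4 in valproic acid (-1.45 ± 0.19) and vorinostat (-1.03 ± 0.18), and at C5 in scriptaid and panobinostat. The first call is not the first concentration at which the level was below C1. Every C2 library of mocetinostat (61.7, 152 and 218 CPM) and of valproic acid (225, 242 and 241 CPM) was below every C1 library, as was every C3 library of scriptaid (126, 132 and 94.6 CPM), and these changes were not called. Tacedinaline C2 went the other way, with every library (293 to 323 CPM) above every C1 library (249 to 282 CPM), and was not called. Groups of 3 libraries can lie apart by sampling alone. The levels were not always lowest at C5. In valproic acid the C4 libraries read 107, 129 and 64.7 CPM, all below the lowest C5 library. Panobinostat C4 read 256, 185 and 236 CPM, which overlapped C1.

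ASNS and CHAC1, both induced by ATF4 in the integrated stress response, went the other way in several chemicals. ASNS, asparagine synthetase, was called higher at C5 in mocetinostat (3.34-fold), scriptaid (2.40-fold), tacedinaline (2.08-fold) and vorinostat (1.61-fold), in which TRIB3 was lower in the same libraries. In mocetinostat it read 18.8, 39.2 and 24.7 CPM at C1 and 55.0, 117 and 105 CPM at C5 (1.74 ± 0.41 SE, adjusted p = 0.00441). In scriptaid it read 30.0, 27.8 and 47.3 CPM at C1 and 65.6, 71.3 and 116 CPM at C5 (1.26 ± 0.35 SE, adjusted p = 0.0115). In tacedinaline it read 35.5, 49.6 and 33.9 CPM at C1 and 76.8, 93.7 and 79.2 CPM at C5 (1.06 ± 0.25 SE, adjusted p = 0.00074). The C1 and C5 libraries did not overlap in these 3. In vorinostat the groups, 32.7, 36.6 and 51.8 CPM at C1 and 52.9, 63.3 and 78.9 CPM at C5, were apart by a small margin (0.68 ± 0.27 SE, adjusted p = 0.0346). That call was lost without batch 1 or 2 (adjusted p = 0.129 and 0.124), without a filter on low counts (0.0567) and in the model of all libraries (0.201). Scriptaid lost its ASNS call without batch 1 or 2 (adjusted p = 0.0863 and 0.133) and mocetinostat without batch 2 (0.0605). In tacedinaline the call was made whichever batch was left out. In valproic acid ASNS read 34.4, 50.8 and 57.8 CPM at C1 and 51.3, 86.1 and 70.7 CPM at C5, higher in each of 3 batches but not called (0.54 ± 0.26 SE, adjusted p = 0.212). In apicidin and panobinostat its C5 change was 0.18 ± 0.32 (SE) and -0.000524 ± 0.24 (SE), with overlapping libraries. In trichostatin A it read 27.5, 68.9 and 97.8 CPM at C1 and 29.9, 19.9 and 45.9 CPM at C5, an uncalled -1.02 ± 0.37 (SE) with the library that stood apart and -0.60 without it.

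CHAC1 encodes an enzyme that degrades glutathione. Its probe was weak, with C1 means of 1.15 to 5.44 CPM, and it was called higher at C5 in tacedinaline (10.1-fold), apicidin (6.43-fold) and mocetinostat (5.43-fold). In tacedinaline it read 4.43, 1.23 and 0.765 CPM at C1 (5, 4 and 3 counts) and 15.8, 15.8 and 20.2 CPM at C5 (29, 42 and 45 counts), and the C5 libraries were all above those at C1 (3.33 ± 0.70 SE, adjusted p = 0.000127). In apicidin it read 1.59, 1.33 and 0.512 CPM at C1 and 3.49, 10.9 and 8.47 CPM at C5 (2.68 ± 0.90 SE, adjusted p = 0.0276). In mocetinostat it read 0.734, 3.79 and 1.99 CPM at C1 and 18.6, 9.86 and 7.70 CPM at C5 (2.44 ± 0.87 SE, adjusted p = 0.0428). Both pairs of groups were apart. With the batch as a block the mocetinostat change was 2.32 with adjusted p = 0.0757, and it was also lost without batch 1 or 2 (0.299 and 0.126). The apicidin call was lost without batch 2 or 3 (0.111 and 0.23), and that in tacedinaline was made whichever batch was left out. The sizes moved with single batches. The log2 change was 4.12 without batch 1 and 2.69 without batch 3 in tacedinaline, 1.53 without batch 1 and 3.24 without batch 2 in mocetinostat, and 3.33 without batch 1 in apicidin. In panobinostat CHAC1 read 1.27, 3.55 and 1.87 CPM at C1 and 0, 0.702 and 1.06 CPM at C5, lower in each batch and not called (-1.86 ± 1.06 SE, adjusted p = 0.254). In vorinostat, where it did not pass the filter on low counts, it read 4.02, 1.04 and 1.93 CPM at C1 (7, 4 and 6 counts) and 6.38, 5.76 and 5.22 CPM at C5 (7, 11 and 8 counts).

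**Figure D2:**
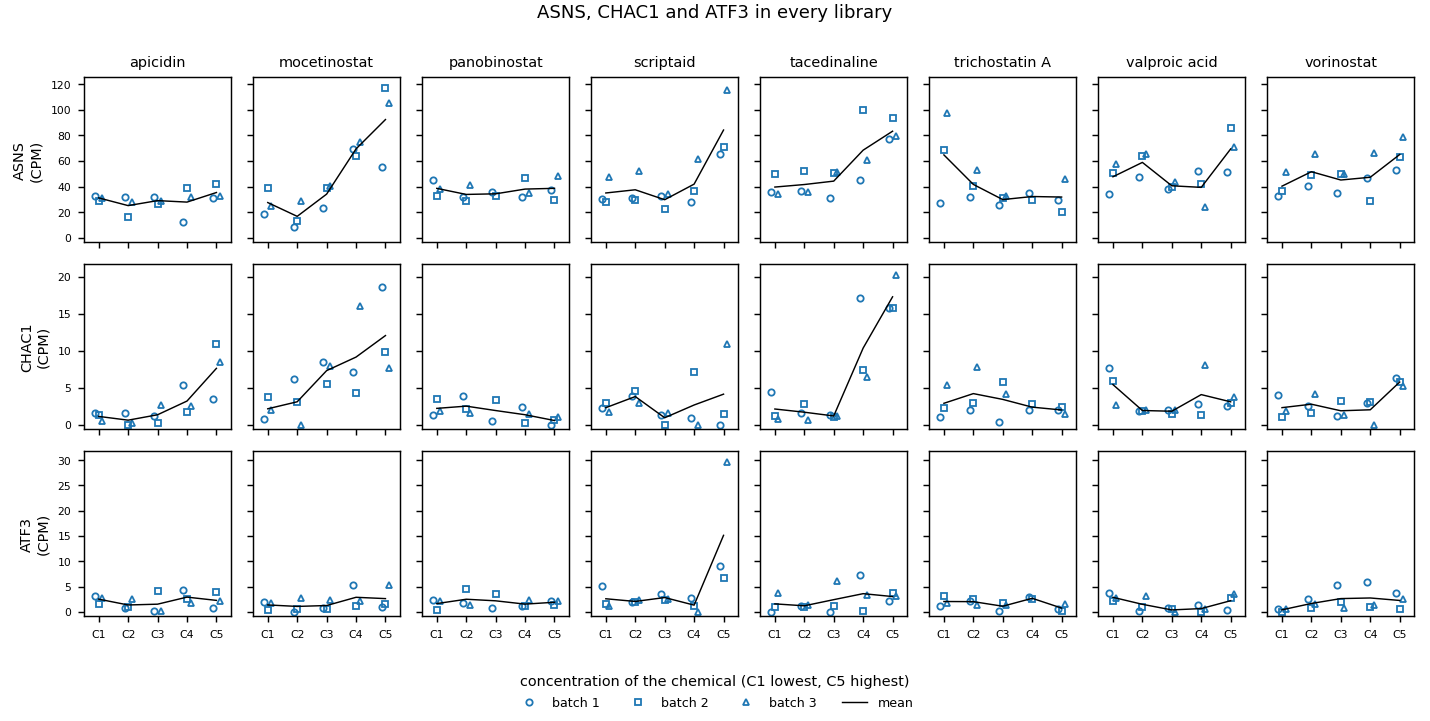
Level (CPM, linear axis from 0) of ASNS, CHAC1 and ATF3 in each library at C1 to C5 of the 8 chemicals, with a symbol for each HepaRG batch and a line through the group means. ASNS reached 55.0 to 117 CPM at mocetinostat C5, CHAC1 reached 15.8 to 20.2 CPM at tacedinaline C5, and ATF3 reached 29.7 CPM in a single scriptaid C5 library.

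HSPA5 encodes BiP, the main chaperone of the endoplasmic reticulum lumen, whose mRNA rises in the unfolded protein response. Here it was called lower at C5 in 6 chemicals, by 1.65-fold in valproic acid to 2.73-fold in mocetinostat, and it was called higher nowhere. In mocetinostat the libraries read 401, 423 and 605 CPM at C1 and 138, 154 and 232 CPM at C5 (-1.45 ± 0.22 SE, adjusted p = 0.000125). In tacedinaline they read 353, 345 and 394 CPM at C1 and 164, 131 and 188 CPM at C5 (-1.18 ± 0.15 SE, adjusted p = 1.05e-08). In panobinostat they read 455, 381 and 453 CPM at C1 and 196, 195 and 231 CPM at C5 (-1.05 ± 0.15 SE, adjusted p = 3.10e-05). Every C5 library was below every C1 library in these chemicals, and the same was true of the following 3. Apicidin gave 420.4, 328 and 466 CPM at C1 and 166, 259 and 237 CPM at C5 (-0.87 ± 0.19 SE, adjusted p = 0.00131). Vorinostat gave 294, 312 and 328 CPM at C1 and 185, 168 and 160.4 CPM at C5 (-0.87 ± 0.15 SE, adjusted p = 1.02e-05). Valproic acid gave 407, 362 and 475 CPM at C1 and 212, 288 and 253 CPM at C5 (-0.73 ± 0.18 SE, adjusted p = 0.0102). This last call was lost without batch 1 (adjusted p = 0.25), and scaling by total counts alone left it under a fold of 1.5. The other 5 were made whichever batch was left out. In scriptaid HSPA5 read 247, 247 and 309.6 CPM at C1, 129.9, 115 and 126 CPM at C3 and 193, 178 and 142 CPM at C5. C3 was called (-1.12 ± 0.27 SE, adjusted p = 0.0449), and C5, though below C1 in each batch, was not (-0.65 ± 0.26 SE, adjusted p = 0.0728), while DESeq2 called it (adjusted p = 0.046). Trichostatin A gave 428, 276 and 113 CPM at C1 and 173, 153 and 276 CPM at C5. The groups overlapped, since the C1 library of batch 3 was the lowest of all 6 (-0.44 ± 0.33 SE, adjusted p = 0.707). Without that library the change was -0.82 (adjusted p = 0.077), and without all libraries of batch 3 it was called (adjusted p = 0.00627).

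HERPUD1, a membrane protein of the machinery that sends misfolded proteins to the proteasome, was called lower at C5 in 6 chemicals by 2.03- to 3.83-fold. In scriptaid the libraries read 18.5, 23.8 and 24.4 CPM at C1 and 4.53, 6.07 and 6.76 CPM at C5 (-1.94 ± 0.47 SE, adjusted p = 0.00418). In apicidin they read 25.2, 28.9 and 28.2 CPM at C1 and 7.23, 5.58 and 14.6 CPM at C5 (-1.58 ± 0.46 SE, adjusted p = 0.012). In vorinostat they read 31.0, 25.4 and 22.8 CPM at C1 and 7.29, 9.94 and 9.78 CPM at C5 (-1.52 ± 0.38 SE, adjusted p = 0.00114). No C5 library of these reached its C1 group. Mocetinostat (-1.44 ± 0.49 SE, adjusted p = 0.0348), tacedinaline (-1.19 ± 0.35 SE, adjusted p = 0.00531) and valproic acid (-1.02 ± 0.26 SE, adjusted p = 0.0126) also had groups that did not overlap. The probe was of modest strength. The call in vorinostat was the only 1 made whichever batch was left out, and that in mocetinostat was lost without any of the 3 (adjusted p = 0.0636, 0.134 and 0.105). The calls of apicidin (0.0916), scriptaid (0.0821) and tacedinaline (0.129) were lost without batch 2, and that of valproic acid without batch 1 or 2 (0.209 and 0.101). In panobinostat HERPUD1 read 20.9, 35.3 and 21.8 CPM at C1 and 20.7, 12.2 and 7.98 CPM at C5, just apart and not called (-0.94 ± 0.34 SE, adjusted p = 0.0583). Trichostatin A had the only C5 change above 0, 0.19 ± 0.28 (SE), and its libraries overlapped. Without the library that stood apart this change was 0.21.

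XBP1 encodes the transcription factor that IRE1 activates by splicing its mRNA. The probe sequences were not used here, so spliced and unspliced XBP1 mRNA cannot be told apart. Its total level was 18.9-fold lower in tacedinaline and 14.6-fold lower in mocetinostat at C5, the largest fitted falls of any member with counts at C5, and in vorinostat the fall is known only as a bound. At vorinostat C5 all 3 libraries held 0 counts, against 12, 40 and 53 counts at C1 (6.89, 10.4 and 17.0 CPM). With 3 counts per library as the floor this is at least 5.48-fold lower (adjusted p = 3.80e-06). This group had the lowest mean total of all groups, and C4 of the same chemical already read 5.19, 2.80 and 3.80 CPM (7, 8 and 12 counts), below all C1 libraries (-1.60 ± 0.57 SE, adjusted p = 0.0272). In tacedinaline XBP1 read 10.6, 19.1 and 22.4 CPM at C1 and 0.545, 0.376 and 1.80 CPM at C5 (1, 1 and 4 counts), a log2 change of -4.24 ± 0.74 SE, adjusted p = 9.39e-06. In mocetinostat it read 13.7, 11.8 and 23.4 CPM at C1 and 0, 1.26 and 2.07 CPM at C5 (0, 5 and 7 counts), -3.87 ± 0.92 SE, adjusted p = 0.0043. The libraries of both chemicals were far apart at C1 and C5. Scriptaid gave 12.5, 7.86 and 11.9 CPM at C1 and 3.17, 3.64 and 0 CPM at C5 (-2.14 ± 0.65 SE, adjusted p = 0.0175). Panobinostat gave 10.4, 16.9 and 18.4 CPM at C1 and 9.82, 7.02 and 3.19 CPM at C5 (-1.18 ± 0.38 SE, adjusted p = 0.0368). These groups were apart, in panobinostat by a small margin, and its call was lost without batch 2 or 3 (adjusted p = 0.137 and 0.403). The call of scriptaid was lost without batch 1 or 2 (0.133 and 0.0864) and that of mocetinostat without batch 2 (0.0741). The log2 change moved to -1.76 without batch 1 and -0.70 without batch 3 in panobinostat, to -2.86 without batch 2 and -1.56 without batch 3 in scriptaid, and to -4.96 without batch 3 in tacedinaline. In apicidin XBP1 was below C1 in each batch at C5, with 17.1, 14.2 and 10.8 CPM at C1 and 5.74, 9.77 and 2.35 CPM at C5, and not called (-1.23 ± 0.55 SE, adjusted p = 0.0978). In valproic acid and trichostatin A the libraries overlapped, with changes of -0.57 ± 0.43 and -0.03 ± 0.41 (SE). Without the library that stood apart the change in trichostatin A was -0.36.

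DNAJB9 (ERdj4), a cochaperone of HSPA5 and a target of XBP1, was called lower at C5 in 3 chemicals. In apicidin it read 125, 189.9 and 119.6 CPM at C1 and 58.6, 47.5 and 46.6 CPM at C5 (-1.51 ± 0.35 SE, adjusted p = 0.00265). In tacedinaline it read 192, 122 and 144 CPM at C1 and 82.3, 86.2 and 45.9 CPM at C5 (-1.08 ± 0.24 SE, adjusted p = 0.000317). In panobinostat it read 144, 131 and 107 CPM at C1 and 66.5, 79.6 and 80.6 CPM at C5 (-0.75 ± 0.23 SE, adjusted p = 0.0294). The C5 libraries of all 3 were below those at C1. The calls of apicidin and panobinostat were lost without batch 2 (adjusted p = 0.0706) and without batch 1 or 3 (0.236 and 0.108). In vorinostat, where XBP1 was at 0 counts, DNAJB9 read 98.2, 134 and 107 CPM at C1 and 90.2, 102 and 59.3 CPM at C5, and these overlapped (-0.43 ± 0.27 SE, adjusted p = 0.175). In mocetinostat, with the XBP1 fall given above, it read 171, 151 and 68.3 CPM at C1 and 60.1, 80.9 and 61.9 CPM at C5, which also overlapped (-0.94 ± 0.57 SE, adjusted p = 0.229). The remaining chemicals had C5 changes of -0.40 in scriptaid, -0.41 in trichostatin A and -0.88 in valproic acid, none of them called. Without the library that stood apart the change in trichostatin A was -0.77 and still not called (adjusted p = 0.0881). At valproic acid C4 it was called lower (-1.26 ± 0.36), with 43.4, 102 and 24.7 CPM, with batch 2 in the range of C1.

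**Figure D3:**
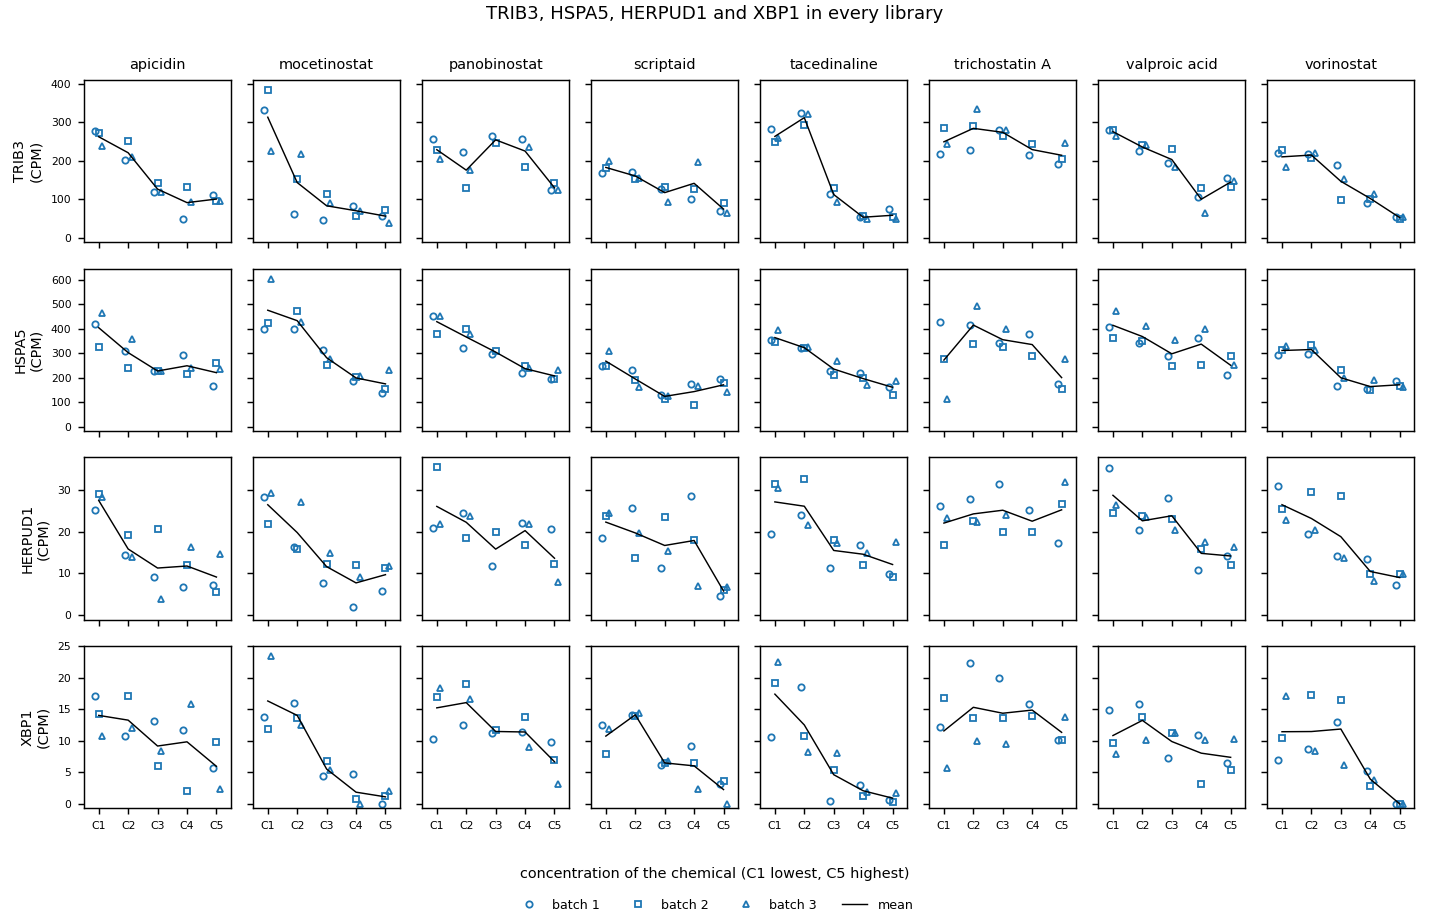
Level (CPM, linear axis from 0) of TRIB3, HSPA5, HERPUD1 and XBP1 in each library at C1 to C5 of the 8 chemicals, with a symbol for each HepaRG batch and a line through the group means. XBP1 lies at 0 in all 3 vorinostat C5 libraries, TRIB3 falls to 48.1 to 74.7 CPM at tacedinaline C5, and the trichostatin A C1 library of batch 3 has the lowest HSPA5 of its group (113 CPM).

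Member calls appeared from C3 upwards. At C2, 0 of 85 combinations were called in either direction, beside 0.0659% of all features higher and 0.0206% lower, pooled over the 8 chemicals. At C3, 11 were called lower and 0 higher, beside 3.16% and 2.82% of all features. At C4, 25 were called lower and 3 higher, beside 8.14% and 7.85%. HSPA5 (5 chemicals) and TRIB3 (3 chemicals) made up 8 of the 11 calls at C3, and the other 3 were of XBP1, DNAJB9 and DDIT3_16736 in tacedinaline. The calls higher at C4 were of ASNS in mocetinostat and tacedinaline and CHAC1 in tacedinaline. A linear trend on log2 concentration, which uses all 5 groups, was called lower in 25 combinations and higher in 5, where 12.7% of all features were called lower and 12.7% higher. The trends higher were ASNS in mocetinostat (1.87 ± 0.45) and tacedinaline (1.06 ± 0.24) and CHAC1 in apicidin (2.81 ± 0.82), mocetinostat (2.56 ± 0.73) and tacedinaline (3.78 ± 0.66), each as fitted log2 change from C1 to C5 with SE. With the batch as a block, 4 more trends were called lower, DDIT3_16736 in panobinostat (adjusted p = 0.0493), DDIT3_1800 in valproic acid (0.0373) and vorinostat (0.0498) and DNAJB9 in valproic acid (0.043). At mocetinostat C2 the batches differed. TRIB3 read 61.7, 152 and 218 CPM and DNAJB9 30.2, 22.6 and 98.3 CPM at C2. Batches 1 and 2 lay below every C1 library for both genes, while batch 3 lay near or above its own C1 values of 225 CPM (TRIB3) and 68.3 CPM (DNAJB9). DDIT3_1800 was high in those same batches at C2, as given above.

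Whether the chemicals differed in the C5 change was tested in 1 model of all 118 libraries with 28 pairs of chemicals. The concentrations were not matched, so a difference is between these treatments and not between chemicals at equal dose. Over all features 30.3% differed between chemicals at an adjusted p under 0.05, and 5 of 11 member probes did. They were TRIB3 (adjusted p = 6.19e-08), XBP1 (2.49e-06), ASNS (0.000163), CHAC1 (0.00482) and HERPUD1 (0.0257). The other probes had adjusted p of 0.0927 (HSPA5) to 0.904 (DDIT3_1800), which does not show that they responded alike. The count of 5 became 2 without batch 2, 4 without batch 1 or 3, and 4 without trichostatin A. TRIB3 and XBP1 each differed in 13 of 28 pairs, with p adjusted over all features within a pair. TRIB3 fell further in mocetinostat than in panobinostat, by 1.75 ± 0.36 (SE, adjusted p = 0.00013), than in valproic acid, by 1.61 ± 0.35 (SE, adjusted p = 0.000464), and than in apicidin, by 1.16 ± 0.35 (SE, adjusted p = 0.03), all on the log2 scale. Tacedinaline also exceeded panobinostat, by 1.44 ± 0.36 (SE, adjusted p = 0.00302). For XBP1, mocetinostat fell further than panobinostat by 2.79 ± 0.86 (SE, adjusted p = 0.0196) and tacedinaline further than apicidin by 3.08 ± 0.95 (SE, adjusted p = 0.0399). The 4 pairs of XBP1 with vorinostat rest on groups of 0 counts, and their sizes are not given. ASNS differed in 6 pairs, 4 of them with trichostatin A, whose C1 group held the library that stood apart. In the other 2 it rose more in mocetinostat than in apicidin, by 1.49 ± 0.49 (SE, adjusted p = 0.0482), and than in panobinostat, by 1.64 ± 0.49 (SE, adjusted p = 0.0142). CHAC1 differed in 4 pairs, among them tacedinaline against panobinostat by 5.04 ± 1.38 (SE, adjusted p = 0.00818). All 5 pairs of HERPUD1 were with trichostatin A. Fitted alone, that chemical had a HERPUD1 change of 0.19 with the library that stood apart and 0.21 without it. The largest difference of a HERPUD1 pair was against scriptaid, by 2.19 ± 0.56 (SE, adjusted p = 0.00161). DDIT3, ATF4 and DNAJB9 differed in 0 of 28 pairs. By class, the benzamides mocetinostat and tacedinaline had the C5 changes of TRIB3 given above, -2.47 and -2.17. The hydroxamic acids had -1.995 (vorinostat), -1.29 (scriptaid), -0.82 (panobinostat) and -0.22 (trichostatin A), the cyclic peptide apicidin -1.38 and the fatty acid valproic acid -0.93. The doses differed, so the classes were not compared.

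**Figure D4:**
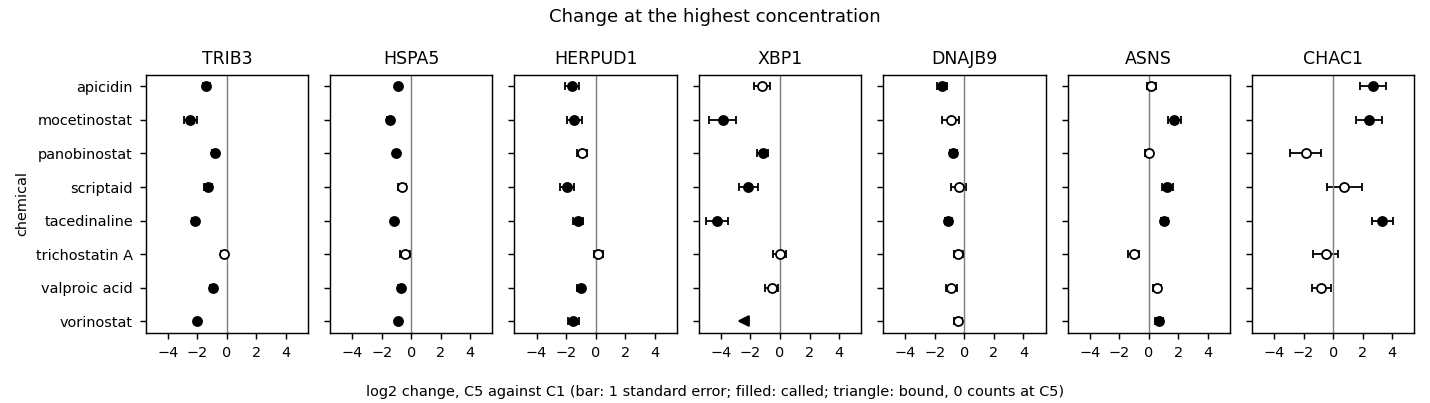
Log2 change at C5 against C1 (horizontal axis) for 7 members in the 8 chemicals (vertical axis), with 1 standard error as the bar, filled points for called changes and a triangle for the bound where C5 held 0 counts. TRIB3, HSPA5, HERPUD1, XBP1 and DNAJB9 lie mostly left of 0 and ASNS and CHAC1 on either side, with filled points on the right alone; CHAC1 was not tested in vorinostat.

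Other genes of these pathways, in 5 lists without the members, gave a mixed picture at C5. Counts are of tested probes summed over the 8 chemicals, for which the shares over all features were 13.4% lower and 11.6% higher, and the median over all features was 0.02. The per-chemical shares are plotted beside those of all features. Further targets of the integrated stress response (35 genes, 34 in the table) had 45 calls lower (20.5%) and 20 higher (9.09%) of 220, with a median log2 change of -0.29. NUPR1, a stress-induced chromatin protein, PCK2, the mitochondrial PEPCK, and ATF5, an ATF4-related factor, were called lower in 7, 7 and 6 chemicals. GDF15, a secreted stress cytokine, was called higher in 6. NUPR1 at mocetinostat C5 went from 15.2 ± 2.26 to 0.957 ± 0.938 CPM, SD of 3 libraries each (log2 change -3.93 ± 0.77 SE, adjusted p = 0.000991). PCK2 at apicidin C5 went from 39.2 ± 7.78 to 5.42 ± 1.43 CPM, SD of 3 libraries each (-2.85 ± 0.29 SE, adjusted p = 2.93e-07). ATF5 at valproic acid C5 went from 27.6 ± 3.52 to 3.98 ± 3.14 CPM, SD of 3 libraries each (-2.82 ± 0.43 SE, adjusted p = 0.000104). These 3 moved in the direction of TRIB3. GDF15 moved in the direction of ASNS, and at mocetinostat C5 it went from 36.9 ± 8.40 to 280.1 ± 28.5 CPM, SD of 3 libraries each (2.92 ± 0.29 SE, adjusted p = 1.35e-06).

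The list of eIF2α phosphorylation and its reversal (14 genes) had 6 calls lower (4.88%) and 15 higher (12.2%) of 123, with a median log2 change of 0.04. EIF2S1, which encodes eIF2α, and PPP1R15B, a subunit of the phosphatase that reverses its phosphorylation, were each called higher in 5 chemicals. EIF2AK4 (GCN2), the kinase that senses uncharged tRNA, was called lower in 4, and EIF2B2, a subunit of the exchange factor eIF2B, higher in 2 by 1 of its 2 probes and in 0 by the other. EIF2AK4 changed by -1.32 ± 0.21 SE, adjusted p = 0.000144 in mocetinostat and by -1.11 ± 0.15 SE, adjusted p = 6.67e-08 in tacedinaline. EIF2S1 changed by 0.98 ± 0.16 SE, adjusted p = 0.000229 in mocetinostat. PPP1R15B changed by 0.89 ± 0.13 SE, adjusted p = 1.33e-06 in vorinostat. The kinase PERK (EIF2AK3), the stress-induced phosphatase subunit PPP1R15A and the kinases EIF2AK1 and EIF2AK2 were called in 0 of 8 chemicals, and are named because their values were seen. Phosphorylation itself was not measured. The sensors of the unfolded protein response (10 genes) had 10 calls lower (13.2%) and 3 higher (3.95%) of 76, with a median log2 change of -0.17. CREB3L3, a liver transcription factor processed like ATF6, accounted for 5 of those lower and was called higher in scriptaid (1.03 ± 0.37 SE, adjusted p = 0.0439). ERN1 could be tested in 3 chemicals and was called lower in mocetinostat, where it went from 3.44 ± 1.73 to 0.0988 ± 0.171 CPM, SD of 3 libraries each (-4.83 ± 1.31 SE, adjusted p = 0.0105). MBTPS2 and both probes of MBTPS1, the proteases that cleave ATF6, were each called lower in 1 chemical. ATF6 itself, named after its values were seen, was called higher in tacedinaline (0.60 ± 0.24 SE, adjusted p = 0.042).

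The chaperones and folding enzymes (21 genes, 19 in the table) had 18 calls lower (10.9%) and 15 higher (9.09%) of 165, with a median log2 change of -0.15. CALR, calreticulin, and DNAJC3, a cochaperone and inhibitor of PERK, were called lower in 5 chemicals each, DNAJC3 by DNAJC3_1920 while its other probe was called lower in 1, and the HSPA5 cochaperones DNAJC1 and DNAJB11 were called higher in 5 each. In vorinostat CALR changed by -0.94 ± 0.13 SE, adjusted p = 2.04e-07 and DNAJB11 by 0.91 ± 0.13 SE, adjusted p = 5.56e-07. In tacedinaline DNAJC3 changed by -1.01 ± 0.18 SE, adjusted p = 1.04e-05 and DNAJC1 by 1.85 ± 0.35 SE, adjusted p = 2.57e-05. These cochaperones of HSPA5 thus moved in both directions where HSPA5 itself was lower. The degradation and translocation list (26 genes) had 10 calls lower (4.78%) and 28 higher (13.4%) of 209, with a median log2 change of 0.12. HM13, signal peptide peptidase, was called higher in 6 chemicals and SRP54, of the signal recognition particle, in 5. The coat protein SEC24D was called lower in 5 by 1 of its probes, and the ubiquitin-conjugating enzyme UBE2J1 in 4. HM13 changed by 1.23 ± 0.14 SE, adjusted p = 1.53e-09 in tacedinaline and SRP54 by 1.16 ± 0.14 SE, adjusted p = 3.68e-08 in vorinostat. SEC24D changed by -1.17 ± 0.17 SE, adjusted p = 4.53e-07 and UBE2J1 by -1.18 ± 0.22 SE, adjusted p = 0.000482 in vorinostat and scriptaid. HM13 was higher and HERPUD1 lower together in apicidin, mocetinostat, scriptaid, tacedinaline and vorinostat.

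**Figure D5:**
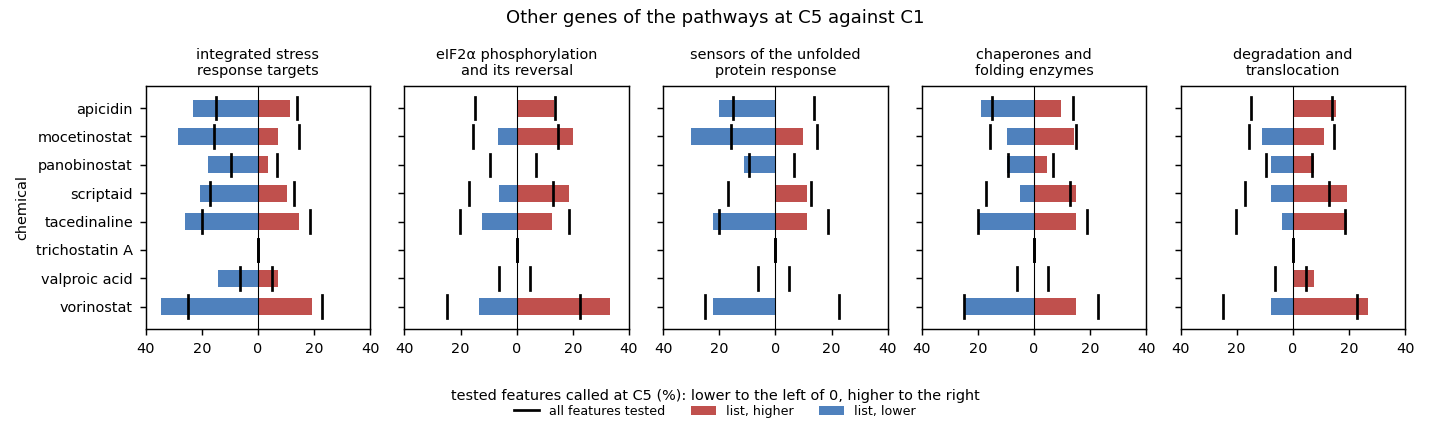
Share of tested features called at C5 against C1 (per cent, lower to the left of 0 and higher to the right) for 5 pathway lists without the members in the 8 chemicals, with black ticks for the shares over all features. The integrated stress response targets fall short of the ticks for higher in 6 chemicals and pass those for lower in 7, and trichostatin A has no bar.

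To see which genes followed the members most closely, the 32 differences of the group mean log2 CPM from C1 (C2 to C5 in 8 chemicals) were correlated over 11279 features tested in all chemicals. The 4 differences of a chemical share their C1 libraries, and all include the shift between low and high concentrations, so Pearson r is a description and its size has no test. TRIB3 was most like SCCPDH (r = 0.95), GSTA2 (r = 0.94) and PEBP1 (r = 0.94). HSPA5 was most like SELENBP1 (r = 0.92), RNASE4 (r = 0.91) and C3 (r = 0.91). XBP1 was most like PLXNB1 (r = 0.96), SDC1 (r = 0.96) and PDZK1 (r = 0.96). HERPUD1 was most like PMF1-BGLAP (r = 0.93), GSAP (r = 0.93) and ACMSD (r = 0.91), and DNAJB9 like MMUT (r = 0.86) and FNDC3A (r = 0.84). ASNS was most like VAMP3 (r = 0.90), SNAPC2 (r = 0.89) and IER3IP1 (r = 0.88). For the other members the closest feature was at r = 0.87 (AKAP9, for DDIT3_1800), 0.85 (SEPTIN10, for CHAC1), 0.76 (TSFM, for ATF3) and 0.70 (LARP1, for ATF4). Among the members, XBP1 followed TRIB3 (r = 0.85) and HERPUD1 (r = 0.76) and ran against ASNS (r = -0.81). TRIB3 had r = -0.64 with ASNS and -0.68 with CHAC1. With the other genes induced by ATF4 it had r = -0.29 (ATF3), 0.28 (DDIT3_1800) and 0.23 (DDIT3_16736). ATF4 mRNA stood at r = -0.09 with ASNS and 0.42 with TRIB3.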

How the data were processed

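The authors deposited raw counts per TempO-Seq probe for 118 libraries of HepaRG cells. The submitters' processing notes name bcl2fastq 2.20.422, fastp 0.23.2, STAR 2.7.10b and DESeq2 1.38.0, and the genome build is not given in the sources used here. Of 22069 rows, 22068 were used. The row left out had no value in 88 libraries. Every group came from the sample labels.

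Each chemical was fitted alone with edgeR 4.0.16 in R 4.3.3 (TMM scaling, filterByExpr, quasi-likelihood F test), for C2 to C5 against C1 and for a linear trend on log2 concentration. P-values were adjusted by Benjamini-Hochberg over all features tested in that fit. Groups share their C1 libraries within a chemical, so the comparisons of a chemical are not independent. A model of all libraries tested whether the C5 change differed between chemicals. The scripts were tested on simulated counts with known changes. For tacedinaline C5 against C1, 58% of changes to 0.5-fold and 82% of changes to 2-fold were recovered. Changes to 0.25-fold and 4-fold were recovered in 100%. The changed features were drawn from those with higher counts, so recovery for weak probes was not measured. A change that was not called is therefore not shown to be absent.

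Replicate numbers are HepaRG batches per the labels, so same-numbered libraries pair across groups of a chemical. The median correlation of their deviations from the group means was 0.03 over 232 same-batch pairs and -0.01 over 464 others. The fit without the batch as a block is the one reported, with the block as an alternative. The p-values measure the spread between these 3 batches of 1 cell line. Counts were amplified reads without molecular identifiers, so depth limits cover counting error only.

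All member probes are named. From each pathway list the 4 features called in the most chemicals in 1 direction at C5 are named, with ties broken by the mean change, and for each member gene the 3 features of other genes with the most similar pattern. The members and lists were chosen with earlier results of these data known. Promoter windows are those of RefSeq on GRCh38.p14. The alternatives were DESeq2 1.42.0, upper-quartile factors, total counts only, no filter, no fold limit, probes summed per gene, 1 model of all libraries, the batch as a block, each batch left out in turn, trichostatin A without 1 library and the comparison of chemicals without trichostatin A.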

Additional observations from a re-analysis of the deposited data

Results flagged for a closer look

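The change at C5 differed between the 8 chemicals for 5 member probes, by a test with 7 degrees of freedom in a model of all 118 libraries with Benjamini-Hochberg adjustment in edgeR's quasi-likelihood fit. The adjusted p was 6.19e-08 for TRIB3, 2.49e-06 for XBP1, 0.000163 for ASNS, 0.00482 for CHAC1 and 0.0257 for HERPUD1. The concentrations were not matched between chemicals, and chemical and dose cannot be told apart here. Groups held at most 3 libraries, so single libraries were not tested as outliers within a group.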

How the results depend on the processing

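Of the recomputed values of single members, 1533 kept their direction and their side of the threshold, 64 lost a call, 34 gained one and 0 changed direction. With each batch left out in turn, the calls at C5 over all chemicals were 2 to 6 higher (8 with all batches) and 21 to 26 lower (29), and the trends called were 3 to 5 higher (5) and 21 to 23 lower (25). The member calls at C5 were 3 to 5 in apicidin (5 with all batches), 2 to 5 in mocetinostat (7), 1 to 4 in panobinostat (4), 1 to 4 in scriptaid (5), 6 to 7 in tacedinaline (7), 0 to 1 in trichostatin A (0), 0 to 5 in valproic acid (4) and 4 to 5 in vorinostat (5). The number of members that differed between chemicals was 2 to 4 (5).

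Scaled by total counts only, panobinostat had 2 calls in place of 4. In 1 model of all libraries panobinostat had 2 and valproic acid 2, each in place of 4. Without the filter on low counts trichostatin A had 1 call in place of 0, ASNS (log2 change -1.02, adjusted p = 0.026). The cause was not tested. DESeq2 called 8 higher and 32 lower at C5 and trends of 5 higher and 30 lower. With the batch as a block, pairing libraries by HepaRG batch, the calls were 7 higher and 29 lower at C5, 5 and 29 by trend, and 5 members differed between chemicals. At C5 and by trend the block changed no member call other than the 5 named with the results. Scaling by total counts only moved the median change of all features at C5 by 0.19 in mocetinostat, 0.10 in panobinostat, 0.15 in scriptaid, 0.19 in tacedinaline and 0.14 in valproic acid on the log2 scale. Depth limits ATF3, CHAC1 and XBP1 most, which held few counts in many groups. Fits without a batch also had fewer libraries, so the loss of a call there does not tie it to that batch.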
